A study of Brassica napus with 74 samples.

Results

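In the seed of *Brassica napus*, an oilseed with an An and a Cn subgenome, 150 genes were followed whose transcripts were shared by the inner maternal tissues. They were chosen by their levels in globular and heart seeds, in units of TPM (a read count per gene scaled for gene length and library total). For each gene, the mean log2(TPM + 1) was taken in each subregion, and the score was the lowest mean of the gISC, gCPT, hISC, and hCPT minus the highest mean of the other globular and heart subregions. Of 101040 genes, 725 had a score above 0, and the 150 with the highest scores were kept. Both homoeologs of *CEP1*, BnaA03g23380D and BnaC03g27700D, were left out by the rule. All samples were cv. Topas of a single genotype with no treatment, hand pollinated and dissected by laser microdissection (LMD) from fixed, wax-embedded sections. Each library pooled sections of several plants. The stages were ovule (ov, 0 days after pollination), globular (g, 7 days), heart (h, 10 days), and mature green (mg, 28 days). At every stage the maternal subregions were the inner seed coat (ISC), the chalazal proliferating tissue (CPT), the outer seed coat (OSC), and the chalazal seed coat (CZSC). The filial subregions were the embryo proper (EP) and the micropylar, peripheral, and chalazal endosperm (MCE, PEN, CZE) at g and h, and the cotyledons (COT) and embryonic root (ROOT) at mg. The table held 74 libraries of 26 subregions, with 2 to 5 libraries in each.

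The ISC is the layer of the seed coat that faces the endosperm, and the CPT is a mass of maternal cells between the chalazal endosperm and the CZSC that derives from the nucellus. The study describes the ISC as a nutritive reservoir of the seed and proposes that the CPT is a conduit between the CZSC and the CZE. In *B. napus*, both tissues lose cells as the seed matures. The study states that how these cells are eliminated in *B. napus* is unknown. *CEP1* encodes a cysteine endopeptidase known from cells undergoing programmed death in *Arabidopsis*, and its transcripts mark both tissues here, although the study named it on these libraries. The summed TPM of its 2 homoeologs ranged between 502 and 614 in the gCPT, between 627 and 897 in the gISC, between 1997 and 3012 in the hCPT, and between 3890 and 6764 in the hISC. In no other globular or heart library did it exceed 232 (an hOSC library). The labels of the 4 subregions thus carried their marker. *LEC1*, a transcription factor of embryo and endosperm with 2 homoeologs, summed to 3.96, 17.7, and 64.5 TPM from the lowest to the highest hISC library and reached 28.1 TPM in 1 hCPT library, against 597 to 1001 TPM in the hPEN. The part of filial RNA in hISC values was not tested.

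Few of these genes carry a name. Of the 150 identifiers, 13 are symbols in the RefSeq gene table, which gives them no function, and 7 are listed under GO terms in the portion of the study's enrichment tables to hand. Only BnaA06g15180D has a name in the study, *SWEET1*. SWEET proteins are sugar transporters that let sugars pass across membranes along their gradient. The other genes are given by identifier, with no role assigned.

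The whole reads behind the TPM values could be recovered for 99.97% of genes, and all 150 members were among them. The recovered reads per library, a lower limit of depth, ranged from 184465 in ovCPT replicate 2 to 20294600, with a median of 5605050, and 1 read on the median member was worth 0.0124 to 5.02 TPM. The values have a constant of 0.01 reads added to every gene, so that a value below that of 1 read stands for 0 reads. The genes recovered held 24.2% to 96.2% of a library's TPM, so that recovered reads rank libraries only roughly. Counting noise is the only error that reads describe. The gMCE libraries fell into 2 sets, with r over all genes of 0.64 to 0.67 between replicates 1 to 3 and replicates 4 and 5, and of at least 0.89 within the sets. In the gEP, r between replicates 1 and 2 and replicates 3 and 4 was 0.84 and within each pair at least 0.92. The lowest r over all genes lay elsewhere, at 0.49 between hCZSC replicates 1 and 3. It was 0.56 between mgCPT replicates 1 and 3 and 0.56 between ovCPT replicates 1 and 2. Over the members, r for these pairs was 0.77, 0.80, and 0.81. Without either gMCE set 145 or 149 of the 150 members stayed members, and without either gEP pair 148 or 144. Replicate numbers come from the titles, and p-values measure the spread between libraries. The tissue in the label differed from the title in mgCPT replicate 1 and mgCOT replicates 1 and 2. An mgCZSC library had no number that matches a title, and the title of mgCZSC replicate 2 had no library. If it repeats replicate 3, the 3 libraries there stand for 2 samples, which was not tested. Its r over all genes was 0.68 with replicate 3 and 0.74 with replicate 1, against 0.82 between replicates 1 and 3. Each comparison is also given without the 4 libraries of uncertain label and ovCPT replicate 2, a choice made after the data were seen. Wherever libraries are left out, the shares of all genes called are not given. Such counts show only how far the members moved, not whether they stood above all genes.

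The members were abundant in the 4 subregions that chose them and low in the other maternal subregions. The median member had 37.5 TPM in the gISC, 58.9 in the gCPT, 39.5 in the hISC, and 42.0 in the hCPT. In the gOSC, gCZSC, hOSC, and hCZSC the median member had 2.20, 3.30, 4.28, and 3.63 TPM, and in the filial subregions of these stages between 0.22 and 1.40 TPM. These values follow from the rule and are a description without a test. In 99 of the 150 members, each of the 12 inner libraries was above all 36 other globular and heart libraries, where 0.108% of all genes showed this. The rule used the same libraries, so that nothing is read from the comparison. The subregion next below the inner tissues was the hCZSC for 45 members, the hOSC for 30, the gCZSC for 26, and the gOSC for 20, and a filial subregion for the remaining 29. Over the 26 subregions, 140 members had their highest mean TPM in 1 of the 4 inner subregions, led by the gCPT with 53 and the hISC with 36. The exceptions were 7 members highest in the ovCPT, 2 in the ovISC, and 1, BnaA05g18720D, in the mgCZSC.

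**Figure D1:**
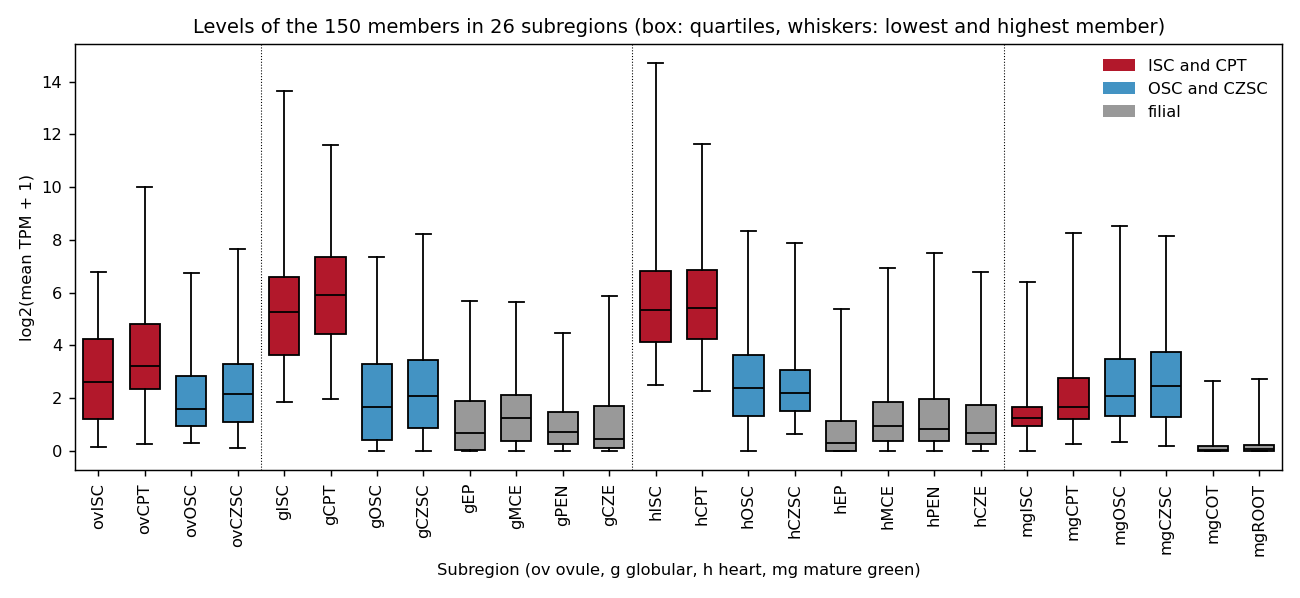
Levels of the 150 members in each of the 26 subregions, as log2(mean TPM + 1), with boxes for the quartiles and whiskers to the lowest and highest member. The ISC and CPT boxes of the globular and heart stages stand above the rest because they chose the members, and the ovule and mature green boxes were not used in the choice.

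Scores ran from 5.25 for BnaC02g05500D down to 0.67 on the log2 scale. The lowest members were BnaC02g31640D (0.677), BnaA02g25580D (0.674), and BnaC08g39990D (0.670), and the next genes outside were BnaCnng40440D (0.666), BnaC09g14230D (0.665), and BnaC05g06020D (0.653). No gap separates members from the genes that follow them. BnaC02g05500D had 114, 114 and 114 TPM in the gISC, 517, 692 and 689.9 in the gCPT, 104, 145 and 89.8 in the hISC, and 366, 569 and 381 in the hCPT. In all other maternal libraries, those of the ovule and mature green seed included, it was at most 3.92 TPM (mgCPT replicate 1). BnaA03g05620D, with a score of 4.44, had 119, 87.5 and 138 TPM in the gISC, 113, 137 and 139 in the gCPT, 141, 190.1 and 91.9 in the hISC, and 82.8, 83.1 and 81.3 in the hCPT. Its levels in the 4 tissues were alike, and it was one of 57 members whose highest and lowest inner mean lay within 3-fold. BnaC02g41690D (score 4.28), BnaA03g39500D (3.32), and BnaAnng30140D (3.24) were higher in globular than in heart tissue in every mean. BnaA08g25320D (3.20) had its highest mean in the hISC, with 195, 292 and 359 TPM, against 62.7, 93.8 and 77.6 TPM in the gISC. BnaC03g07310D (2.94) held 69.7 ± 9.39 TPM in the gISC, 79.3 ± 10.8 in the gCPT, 108 ± 34.5 in the hISC, and 72.1 ± 3.00 in the hCPT (mean ± SD of 3 libraries each). BnaA08g20220D (3.04) had 163 ± 10.2 TPM in the gCPT and 17.9 ± 2.94 TPM in the gISC. Its neighbour by identifier, BnaA08g20230D, is also a member.

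The most abundant members were genes of the ISC. BnaA05g18870D had 1288, 1192 and 1279 TPM in gCPT libraries and 1199.9, 1082 and 969 TPM in those of the hCPT. In the ISC it had 12516, 12020.2 and 14100.0 TPM at g and 24115, 31222 and 24181 TPM at h, so that every CPT library was below every ISC library. BnaC05g31880D had 433, 336 and 367 TPM in the hCPT, against 22938, 29320.3 and 22387 in the hISC. BnaA08g04880D had 1169.7, 708 and 759 TPM in the hCPT, against 13177, 17449 and 10465 in the hISC. Of the members' summed TPM, these 3 genes held 7.01% in gCPT and 11.3% in hCPT libraries, but 67.9% in the gISC and 82.0% in the hISC. All 150 members together held 3.58% of the library's TPM in the gCPT, 2.08% in the hCPT, 4.90% in the gISC, and 7.94% in the hISC. In the CPT the leading genes were others. BnaC07g20570D had 4037, 2559.7 and 2669.8 TPM in the gCPT, BnaC07g33580D 2096, 3289.7 and 3249, and BnaA06g35190D 3671, 2185 and 2249. In the hCPT, BnaA09g52180D was highest, with 3728, 3588 and 2178 TPM. The 10 members of highest mean TPM over the inner tissues also held BnaCnng23240D, BnaA09g00730D, and BnaA07g25400D. BnaCnng23240D and BnaA09g00730D were led by the gISC, with 2009.9 and 2249 TPM, and BnaA07g25400D held 967, 749.9, 977, and 649 TPM in the gISC, gCPT, hISC, and hCPT.

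Members leaned to the CPT or to the ISC. At g, 53 members were over 1 log2 unit higher in the CPT than in the ISC and 20 were over 1 log2 unit lower. At h the counts were 39 and 35. The same 30 members were higher in the CPT at both stages and the same 16 were lower at both, and 3 members leaned to opposite sides. The median difference, gCPT minus gISC, was 0.31 for the members, against -0.10 for all genes of at least 1 TPM in either. For hCPT minus hISC it was -0.02 for the members, against 0.33 for all such genes. BnaC07g33580D had the widest range, with 2096, 3289.7 and 3249 TPM in the gCPT and 7.17, 14.0 and 8.01 TPM in the gISC. At the other end, BnaC05g31880D had 483 TPM in the gCPT and 12299.6 TPM in the gISC. Over the members, the highest of the 4 inner means was 3.93 times the lowest at the median, and more than 10 times in 32 members. Between the stages, 30 members were over 1 log2 unit higher in the hISC than in the gISC and 13 over 1 lower. For the hCPT against the gCPT, the counts were 16 and 42. The median of hISC minus gISC was 0.18 for the members, against -0.20 for all genes of at least 1 TPM in either. For hCPT minus gCPT it was -0.36 for the members, against 0.35 for all such genes. The shares of all genes beyond 1 log2 unit were not counted. The counts between stages, and those of the CPT against the ISC, thus describe the members only. BnaC07g12500D moved most in the ISC, with 173, 200.5 and 81.7 TPM in the hISC and 5.78, 6.80 and 5.49 TPM in the gISC, and had 164, 148 and 76.1 TPM in the hCPT and 10.5, 7.32 and 6.84 TPM in the gCPT. The libraries of the 2 stages did not overlap in either tissue. hISC replicate 3 had the fewest recovered reads of the inner libraries at g and h, 825930 in genes that held 55.4% of its TPM, and its mean log2 level over the members was 5.17, against 5.68 and 5.98 in the other hISC libraries.

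**Figure D2:**
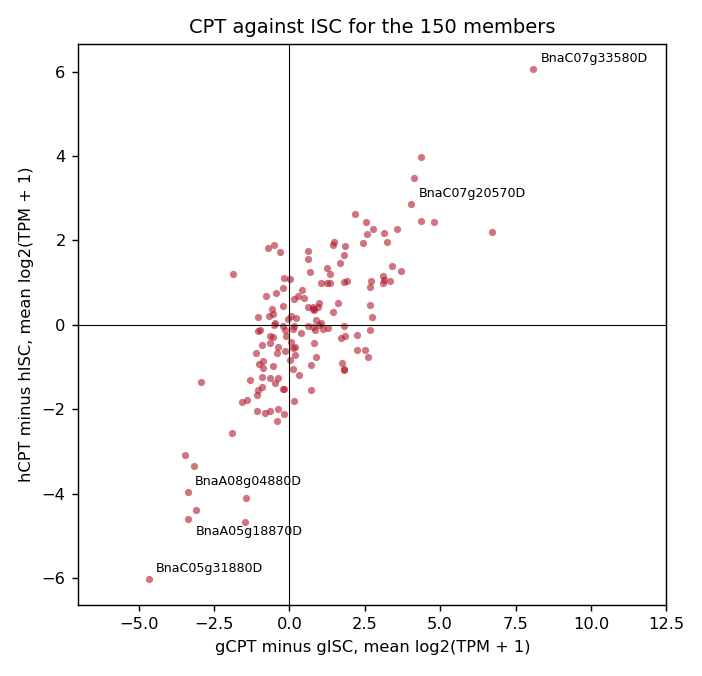
Difference between CPT and ISC at the globular (x axis) and heart (y axis) stage for each of the 150 members, in mean log2(TPM + 1). Points in the upper right lean to the CPT at both stages and points in the lower left to the ISC, with BnaC07g33580D and BnaC05g31880D at the ends.

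By identifier, 78 members lay in An and 72 in Cn. An thus held 52% of the members, against 44.2% of all genes with a subgenome in the identifier. Chromosome A09 held 14 members, A05 held 12, and A03 held 10, of 5728, 3750, and 6076 genes. In the portion of the study's homoeolog lists to hand, 13 pairs held a member, and in 4 pairs both genes were members. BnaA09g07630D, at rank 11, had 1970.1, 1273 and 1364 TPM in the gCPT and 294, 397 and 431 TPM in the hISC. Its homoeolog BnaC08g48400D, at rank 10, had 1559, 733 and 789 TPM in the gCPT and 148, 218 and 256 TPM in the hISC, the lower of the pair in each library given. The other pairs with 2 members were BnaA03g29430D and BnaC03g34720D, BnaA03g39240D and BnaCnng76050D, and BnaA04g07260D and BnaC04g55920D. In the other 9 pairs 1 gene was a member. BnaA08g04880D had 8096 TPM in the gISC and 13697 TPM in the hISC, against 2378 and 4510 TPM in its homoeolog BnaC08g05370D. That homoeolog was also lower in the CPT, and its means of 194 TPM in the gCPT and 230.2 TPM in the hCPT were under its highest level outside the inner tissues, 314 TPM. BnaA08g20230D had 624 TPM in the gCPT and 319 TPM in the hCPT, where BnaC08g06510D had 0.761 and 0.838 TPM. BnaC08g06520D, the next identifier after BnaC08g06510D, is a member in its own right. Only uniquely mapped reads were counted, so reads common to near-identical copies are missing from both, and levels of homoeologs are uncertain to that extent. Across the 26 subregion means, the most alike profiles were those of BnaC04g29170D and BnaA01g25630D (r = 0.999), BnaCnng23240D and BnaA09g00730D (r = 0.993), BnaA03g39500D and BnaC02g42240D (r = 0.993), and BnaA06g35190D and BnaC07g20570D (r = 0.993), with a median r of 0.75 over the 11175 pairs of members. The points share libraries and were in part chosen for their pattern, so r is a description.

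Among the members with an annotation, *SWEET1* (BnaA06g15180D) had 413, 614 and 522 TPM in the gISC, 393, 341 and 339 in the gCPT, 722, 833 and 459 in the hISC, and 553, 771 and 655 in the hCPT. The sugar transporter gene was at 4.5 and 4.9 TPM in the gOSC libraries, at most 1.39 TPM in any gCZSC or hCZSC library, and between 23.5 and 98 TPM in the hOSC. BnaC07g12500D is listed as an extracellular endoribonuclease under the term aging. BnaC03g01960D, listed as an extracellular inhibitor of cysteine-type endopeptidases, had 48.5 TPM in the gISC, 87.0 in the gCPT, 91.2 in the hISC, and 115 in the hCPT, with 30.2 TPM in the gCZSC. BnaC07g48280D, listed as an NAD+ ADP-ribosyltransferase of the nucleus, had 325 TPM in gCPT and 167 TPM in hCPT libraries on average, and 47.0 TPM in the gISC and 36.6 in the hISC. BnaC01g14990D and BnaA01g13040D share the terms chloroplast inner membrane and oxidoreductase activity, and both were higher in the CPT, with 119 and 41.0 TPM in the hCPT, against 60.5 and 17.1 TPM in the hISC. BnaA07g18630D, listed under protein depalmitoylation, the removal of a lipid anchor from proteins, stayed between 33.6 and 57.4 TPM in the 4 inner means. BnaA09g04610D is listed under the nucleus only.

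The ovule and mature green libraries had no part in the choice of the members, and the ISC and CPT were tested there. Each tissue was tested by itself, and the members called in both were not counted. The question was whether genes shared by the ISC and CPT after fertilization already separate these tissues from the OSC and CZSC before it. The OSC and CZSC are together called outer below. The ovISC was compared with the mean of the ovOSC and ovCZSC by limma on log2(TPM + 1), in a fit of all 26 ovule and mature green libraries. Genes are called higher or lower where the p adjusted for 98024 genes was under 0.05. A mean of at least 1 TPM in 1 of the 10 subregions was required, which 149 members passed and BnaC05g41640D did not. In the ovISC, 35 of the 150 members were called higher (23.3%), where 1.27% of all genes were. 5 members were called lower (3.33%), where 4.73% of all genes were. The median difference was 0.15 over the members, against -0.06 over all genes tested, so that a subset and not the list as a whole stood apart. Without the filter the counts were again 35 and 5.

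The subset was led by BnaA03g39500D, with 73.7, 112 and 70.1 TPM in the ovISC, against 0.628, 1.14 and 0.452 in the ovOSC and 2.70, 1.997 and 1.88 in the ovCZSC (log2 difference 5.17 ± 0.25 SE, limma adjusted p = 4.1e-12). BnaC02g41690D had 55.1, 69.7 and 48.0 TPM, against 0.497, 0.870 and 0.592 in the ovOSC and 0.820, 0.499 and 1.26 in the ovCZSC (log2 difference 5.06 ± 0.31 SE, adjusted p = 1.5e-10). BnaC02g42240D had 69.7, 98.4 and 59.9 TPM, against 0.517, 1.34 and 0.323 in the ovOSC and 3.19, 1.58 and 2.74 in the ovCZSC (log2 difference 4.97 ± 0.29 SE, adjusted p = 9.1e-11). In each of the 3 genes the ovISC libraries lay above all outer libraries. In bulk tissue, fewer cells of a type and less RNA per cell cannot be told apart. The 5 members called lower were BnaC01g01400D, BnaA09g13300D, BnaC01g18140D, BnaA01g25630D, and BnaC06g09250D. Of these, BnaA01g25630D (-1.55 ± 0.44 SE, adjusted p = 0.032) was called higher in the ovCPT (1.80 ± 0.51 SE, adjusted p = 0.0068). BnaC01g01400D had 3.55, 0.000741 and 1.37 TPM in the ovISC, with 0 reads in replicate 2, against 3.61, 0.630 and 0.797 in the ovOSC and 63.4, 67.9 and 66.0 in the ovCZSC (log2 difference -2.51 ± 0.52 SE, adjusted p = 0.0024). Its ovISC values overlapped with those of the ovOSC. BnaA09g13300D had 2.41, 2.23 and 1.10 TPM in the ovISC, 10.3, 5.67 and 7.64 in the ovOSC, and 23.8, 28.0 and 29.4 in the ovCZSC (-2.45 ± 0.28 SE, adjusted p = 1.7e-06), with every ovISC library below every outer library. BnaC01g18140D had 1.72, 1.19 and 3.40 TPM in the ovISC, 4.34, 7.65 and 6.19 in the ovOSC, and 10.6, 13.6 and 11.7 in the ovCZSC (-1.67 ± 0.36 SE, adjusted p = 0.0038). *SWEET1* had 88.1, 108 and 76.6 TPM in the ovISC, above 38.7, 54.6 and 44.9 in the ovOSC and 15.5, 18.6 and 16.8 in the ovCZSC, but its difference of 1.65 ± 0.50 did not pass (adjusted p = 0.053). It passed in a fit of all 74 libraries (adjusted p = 0.028) and without the 5 doubtful libraries (adjusted p = 0.0094). Leaving out ovISC replicate 2 ended the calls of BnaC01g01400D (adjusted p = 0.059) and BnaC01g18140D (adjusted p = 0.057), and quantile normalization that of BnaC01g18140D (-0.81, adjusted p = 0.37). Without ovISC replicate 2 there was 1 member lower, and leaving out ovCZSC replicates 2 or 3 left 3. Without the 5 doubtful libraries, which share the fit, 39 were higher and 9 lower.

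In the ovCPT, 63 members were called higher than the mean of the ovOSC and ovCZSC (42%), where 24.6% of all genes were. 6 were called lower (4%), where 14.6% of all genes were. The median difference was 0.77 over the members, against 0.28 over all genes. After quantile normalization the medians were 0.42 and 0.01, with 45 members higher, where 6.87% of all genes were, and 3 lower, where 10.2% were. BnaC02g00930D had 719 and 1336 TPM in the ovCPT, against 2.81, 0.797 and 0.672 in the ovOSC and 15.6, 14.96 and 17.1 in the ovCZSC (log2 difference 7.31 ± 0.44 SE, adjusted p = 4.4e-11), and 17.5, 5.69 and 10.2 TPM in the ovISC. Its ovISC values overlapped with those of the ovCZSC. BnaA09g05410D had 118 and 239 TPM in the ovCPT, against 1.07, 0.557 and 0.813 in the ovOSC and 0.832, 0.799 and 0.957 in the ovCZSC (6.53 ± 0.31 SE, adjusted p = 1.4e-12). Unlike most members, its mean was higher in the ovCPT, at 179 TPM, than in any globular or heart subregion. BnaA06g35190D had 339 and 363 TPM in the ovCPT, against 2.48, 1.30 and 2.19 in the ovOSC and 6.84, 5.10 and 6.80 in the ovCZSC (6.26 ± 0.39 SE, adjusted p = 9.6e-11). In these 3 genes no ovCPT library overlapped with an outer library. BnaC01g01400D, with 2.22 and 0.0551 TPM, BnaA09g13300D, with 1.80 and 4.94 TPM, and BnaA06g11780D, with 18.8 and 0.148 TPM, had the largest negative differences (-2.77 ± 0.60, -1.93 ± 0.32, and -1.83 ± 0.60 SE, adjusted p = 0.00093, 8.6e-05, and 0.018). *SWEET1* had 5.71 and 42.7 TPM in the ovCPT and was not called (-0.76 ± 0.58 SE, adjusted p = 0.34), but its difference was 0.60 without replicate 1 (adjusted p = 0.53) and -2.11 without replicate 2, which passed (adjusted p = 0.024). The ovCPT had 2 libraries, and in the shallow replicate 2 a total of 34 members had 0 reads. Summed TPM of the 2 *CUT1* homoeologs, highest in the gOSC and hOSC, was 36.88 and 50.96 in the ovCPT. It was 45.6 to 66.7 in the ovOSC, at most 14.2 in the ovISC, and at most 8.45 in the ovCZSC. Summed *CEP1* was 10.5 and 51.7 TPM in the ovCPT and at most 3.15 in other ovule libraries. The sum of 12 storage and oleosin genes reached 537 TPM in the ovCPT, against at most 45.2 in those libraries. The part of RNA of other tissues in ovCPT values was not tested. Without replicate 2, 44 members were higher and 4 lower, and without replicate 1, 67 were higher and 15 lower. Without the 5 doubtful libraries the counts were 46 and 4. Without replicate 2, BnaA06g11780D turned to 0.22 (adjusted p = 0.73) and the call of BnaC01g01400D was lost (-1.97, adjusted p = 0.059), and quantile normalization also ended that of BnaA06g11780D (-0.85, adjusted p = 0.26). With 1 ovCPT library left out, the lone library is assumed to vary like those of the other subregions. The shares of all genes called in these fits are not given here. The counts of members thus show only how far they moved, not whether they stood above all genes.

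**Figure D3:**
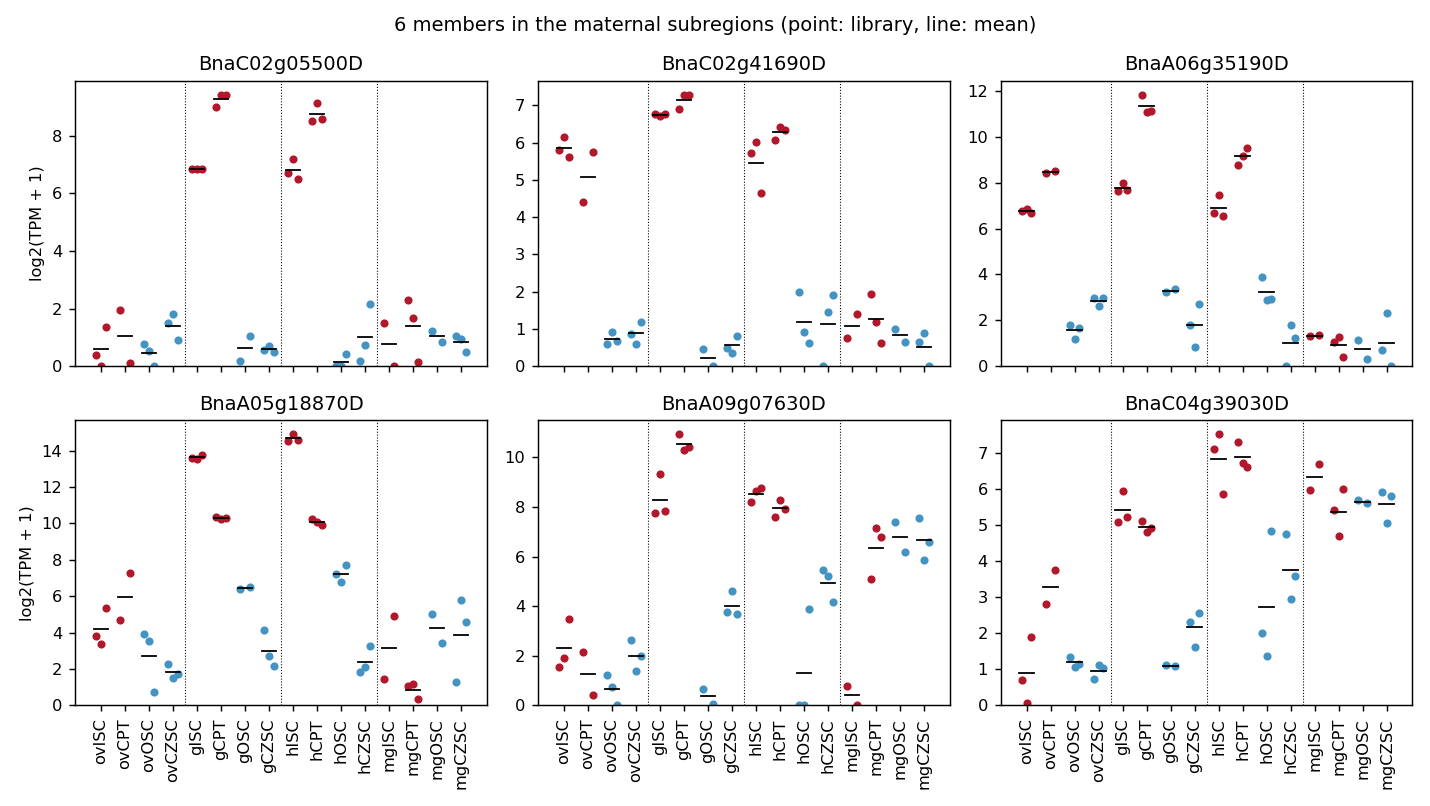
Levels of 6 members in every library of the 16 maternal subregions, as log2(TPM + 1), with a line at the mean of each subregion and the ISC and CPT in red. BnaC02g41690D and BnaA06g35190D were already high in the ovISC and ovCPT, BnaC02g05500D and BnaA05g18870D had their high levels at the globular and heart stages, BnaA09g07630D was near 0 in the mgISC but not in the other mature green maternal tissues, and BnaC04g39030D stayed high at mature green.

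By mature green, the members were low in the inner tissues, and the median member was lower there than in the outer tissues. The median member had 1.39 TPM in the mgISC and 2.16 TPM in the mgCPT, against 3.28 TPM in the mgOSC and 4.49 TPM in the mgCZSC. Over 10 TPM were 7 members in the mgISC and 18 in the mgCPT, against 38 in the mgOSC and 42 in the mgCZSC. In the mgISC, 41 members were called lower than the mean of the mgOSC and mgCZSC (27.3%), where 4.04% of all genes were. By limma 0 were called higher, where 0.657% of all genes were, and 4 members were higher at an unadjusted p under 0.05. The median difference was -0.89 over the members, against 0.03 over all genes. Leaving out either mgISC library left 19 members lower and leaving out mgOSC replicate 1 left 22, whereas 53 were lower and 0 higher without the 5 doubtful libraries. A lone mgISC or mgOSC library is then assumed to vary like those of the other subregions. The shares of all genes called in these fits are not given here, so these counts show only how far the members moved. The mean log2 level over the members was 2.93 in mgOSC replicate 1 and 1.98 in replicate 2. It was 2.17, 2.36 and 2.96 in the mgCZSC libraries and 1.99, 1.97 and 2.20 in those of the mgCPT. The mgCPT thus overlapped with the outer libraries, whereas the mgISC, at 1.39 and 1.45, was below each of them. Genes of storage proteins and oleosins, which are transcribed as seeds mature, were high in both maternal and embryo libraries at mature green. The summed TPM of 12 such genes was 12264.5 and 18514 in the mgISC and ranged from 7510 to 30959 in the mgCPT, against 12012 and 23688 in the mgOSC and 2022 to 19074 in the mgCZSC. It was 6137 to 20587 in the mgCOT and 8271 and 15067 in the mgROOT, so that maternal and embryo ranges overlapped and the list does not mark embryo RNA here. The part of these transcripts in the differences was not tested.

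BnaA09g07630D had 0.735 and 0.0229 TPM in the mgISC, which stand for 1 read and 0 reads, against 166 and 71.9 in the mgOSC and 186, 56.6 and 96.7 in the mgCZSC (log2 difference -6.31 ± 0.60 SE, adjusted p = 1.8e-06). Its homoeolog BnaC08g48400D had 0.735 and 0.0229 TPM in the mgISC, against 80.1 and 46.1 in the mgOSC and 92.8, 36.4 and 55.1 in the mgCZSC (-5.49 ± 0.57 SE, adjusted p = 3.4e-06). With so few reads, both differences depend on the pseudocount of 1 TPM. BnaA09g52180D had 2.70 and 5.56 TPM in the mgISC, against 588 and 154 in the mgOSC and 156, 145 and 555 in the mgCZSC (-5.75 ± 0.60 SE, adjusted p = 3.4e-06). It kept 126, 136 and 648 TPM in the mgCPT, and no mgISC library came near any other mature green maternal library. *SWEET1* had 0.650 and 3.67 TPM in the mgISC, against 73.8 and 18.9 in the mgOSC and 6.74, 6.49 and 14.8 in the mgCZSC (-2.80 ± 0.60 SE, adjusted p = 0.0063), and 12.2, 32.3 and 63.8 TPM in the mgCPT. Its call was lost without mgISC replicate 1 (-2.05, adjusted p = 0.20).

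In the mgCPT, 12 members were called lower than the mean of the mgOSC and mgCZSC (8%), where 1.94% of all genes were. Only 1 was called higher (0.667%), where 0.166% of all genes were. The median difference was -0.34 over the members, against 0.09 over all genes. BnaC08g30850D was the gene called higher, with 7.13, 3.67 and 12.9 TPM in the mgCPT, against 3.73 and 1.26 in the mgOSC and 1.997, 0.0208 and 0.00465 in the mgCZSC (1.89 ± 0.45 SE, adjusted p = 0.024). Its lowest mgCPT value was under the highest mgOSC value, and the call was lost with a pseudocount of 0.1 TPM, without the 5 doubtful libraries, and without mgCPT replicates 1 or 3, mgCZSC replicate 3, or mgOSC replicate 2. BnaC04g44980D had 4.72, 9.11 and 6.31 TPM in the mgCPT, against 109 and 20.9 in the mgOSC and 62.2, 94.1 and 204 in the mgCZSC (-3.27 ± 0.43 SE, adjusted p = 7e-05). BnaA08g23390D had 2.50, 2.37 and 3.60 TPM, against 34.1 and 9.64 in the mgOSC and 20.3, 33.6 and 109 in the mgCZSC (-2.93 ± 0.45 SE, adjusted p = 0.00048). The endoribonuclease gene BnaC07g12500D had 1.73, 2.93 and 0.879 TPM, against 82.2 and 18.9 in the mgOSC and 4.56, 4.10 and 12.3 in the mgCZSC (-2.66 ± 0.43 SE, adjusted p = 0.00088). In these 3 genes every mgCPT value was under every outer value. *SWEET1*, at 12.2, 32.3 and 63.8 TPM, was not called (0.66 ± 0.52 SE, adjusted p = 0.76). The number of lower calls was 7 without mgCPT replicates 1 or 2, 5 without mgOSC replicate 1, 21 without mgCZSC replicate 1, and 22 without mgOSC replicate 2. Without the 5 doubtful libraries it was 8, with 1 higher.

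The change between the stages in the inner minus outer difference was tested, by a contrast chosen after the values were seen. A lower value can be a smaller ovule excess as well as a reversed order, and the test does not tell these apart. The ISC difference from the outer tissue was lower at mature green than in the ovule for 50 members (33.3%), where 2.25% of all genes passed. It was higher for 2 members, BnaA01g25630D and BnaA09g13300D, where 1.93% of all genes passed. The CPT difference was lower at mature green for 59 members (39.3%), where 12.7% of all genes passed, and higher for BnaA09g13300D and BnaC08g06520D, where 6.82% passed. The median of the members was -1.51 for the ISC, against 0.12 for all genes, and -1.22 for the CPT, against -0.22 for all genes. Without mgISC replicate 2, the ISC count of lower members was 33, and without ovCPT replicate 1, 13 members were higher for the CPT. Without the 5 doubtful libraries, 61 members were lower and 3 higher for the ISC, and 44 lower and 3 higher for the CPT.

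**Figure D4:**
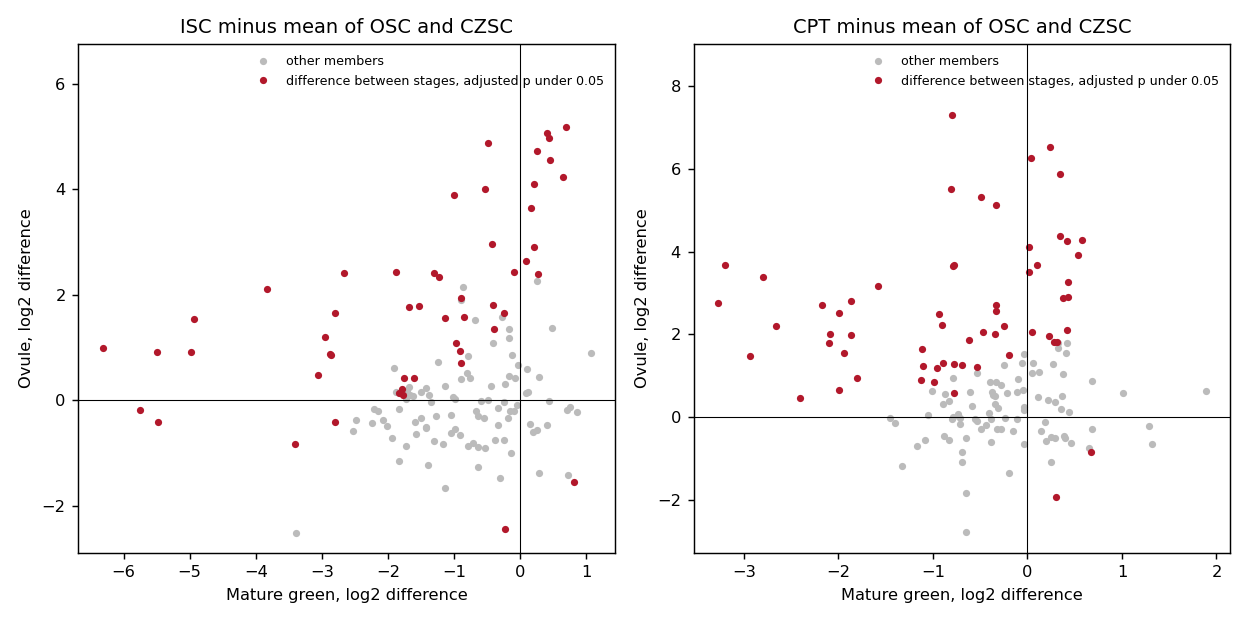
Difference of the ISC (left) and of the CPT (right) from the mean of the OSC and CZSC for each member tested, in log2 units, at mature green (x axis) and in the ovule (y axis), with red points where the stages differed at an adjusted p under 0.05. Members high in the inner ovule tissues lie near or left of 0 at mature green.

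The inner maternal tissues also changed as such between the stages. In the mean of the mgISC and mgCPT against the mean of the ovISC and ovCPT, 83 members were called lower (55.3%), where 33.4% of all genes were. 8 members were called higher (5.33%), where 7.06% of all genes were. The median difference was -1.11 over the members, against -0.27 over all genes. BnaA06g35190D had 1.45 and 1.53 TPM in the mgISC and 1.07, 1.42 and 0.322 in the mgCPT, against 107, 115 and 102 in the ovISC and 339 and 363 in the ovCPT (-6.50 ± 0.31 SE, adjusted p = 2.8e-13). BnaC07g20570D had 1.03 and 1.63 TPM in the mgISC and 1.14, 1.60 and 0.173 in the mgCPT, against 67.0, 68.8 and 87.0 in the ovISC and 248 and 218 in the ovCPT (-5.99 ± 0.28 SE, adjusted p = 2.5e-13). BnaA09g05410D had 1.06 and 0.756 TPM in the mgISC and 1.76, 0.987 and 0.223 in the mgCPT, against 40.6, 55.5 and 48.0 in the ovISC and 118 and 239 in the ovCPT (-5.58 ± 0.25 SE, adjusted p = 1.1e-13). In all 3 genes, the mature green libraries of these tissues were at most 1.76 TPM and the ovule libraries at least 40.6 TPM. *SWEET1* was also called lower, with a difference of -2.10 ± 0.46 SE (adjusted p = 0.00058), but after quantile normalization it was -0.58 and not called (adjusted p = 0.28). Without the 5 doubtful libraries it was -1.12 (adjusted p = 0.038).

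Of the 8 members that rose, 3 are given here. BnaC04g39030D had 62.1 and 103 TPM in the mgISC and 42.2, 25.0 and 63.5 in the mgCPT, against 0.625, 0.0569 and 2.71 in the ovISC and 6.03 and 12.6 in the ovCPT (3.77 ± 0.38 SE, adjusted p = 2.4e-08). BnaC05g39290D had 11.6 and 20.7 TPM in the mgISC and 8.56, 14.6 and 45.7 in the mgCPT, against 1.02, 0.293 and 1.84 in the ovISC and 2.33 and 8.75 in the ovCPT (2.41 ± 0.37 SE, adjusted p = 8.6e-06). In the mgOSC, BnaC04g39030D had 51.1 and 48.0 TPM and BnaC05g39290D had 16.5 and 27.4 TPM, within the range of the inner tissues or near it. BnaC09g07570D had 18.1, 71.7 and 36.6 TPM in the mgCPT and 0 reads in both mgISC libraries, against 0.640, 1.38 and 2.56 TPM in the ovISC and 1.15 and 0.341 TPM in the ovCPT (1.61 ± 0.39 SE, adjusted p = 0.0015). With a pseudocount of 0.1 TPM its difference was 0.99 and not called (adjusted p = 0.28). After quantile normalization 18 members were higher and 58 lower, where 15.8% and 19.9% of all genes were. After rescaling without the 100 most abundant genes 13 were higher and 66 lower, where 11.2% and 24.5% of all genes were. The median over all genes was -0.01 under the one and 0.04 under the other scaling. Leaving out ovCPT replicate 1 gave 16 members higher and leaving out mgISC replicate 1 gave 5. With the 5 doubtful libraries left out, 7 were higher and 82 lower.

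Against the mature green embryo, the mean of the mgISC and mgCPT was higher in 140 members (93.3%), where 87.4% of all genes were. By limma 0 were lower, where 0.0694% of all genes were, and 0 members were lower at an unadjusted p under 0.05. The share of members was near that of all genes. The median difference was 1.36 over the members, against 1.12 over all genes, and after quantile normalization the medians were 0.19 and 0.00, with 29 members higher and 18 lower, where 18.3% and 21.1% of all genes were. After rescaling without the 100 most abundant genes, 92 were higher and 7 lower, where 55.3% and 5.60% of all genes were. Leaving out the 5 doubtful libraries gave 125 higher and 0 lower. BnaA09g52180D had 2.70 and 5.56 TPM in the mgISC and 126, 136 and 648 in the mgCPT, against 0.211, 0.0125 and 0.392 in the mgCOT and 0.0764 and 0.128 in the mgROOT (4.86 ± 0.46 SE, adjusted p = 7.3e-08). BnaC04g39030D had 0.860, 2.52 and 8.18 TPM in the mgCOT and 2.29 and 3.67 in the mgROOT, below each of its mgISC and mgCPT libraries (3.89 ± 0.38 SE, adjusted p = 1.2e-07). BnaC05g47950D had 1.81 and 1.71 TPM in the mgISC and 10.0, 50.1 and 30.02 in the mgCPT, against 0.0479, 0.000266 and 0.000210 in the mgCOT (3.00 ± 0.52 SE, adjusted p = 8e-05), and *SWEET1* was 2.96 ± 0.46 SE higher (adjusted p = 2.7e-05). After quantile normalization the 4 genes were still called higher, by 3.22, 1.25, 1.91, and 1.28 for BnaA09g52180D, BnaC04g39030D, BnaC05g47950D, and *SWEET1* (adjusted p at most 0.015). In the embryo subregions the median member was at 0.0408 TPM in the mgCOT and 0.0497 TPM in the mgROOT, and the highest value of any member was 8.39 TPM, for BnaA07g25400D in mgROOT replicate 2.

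**Figure D5:**
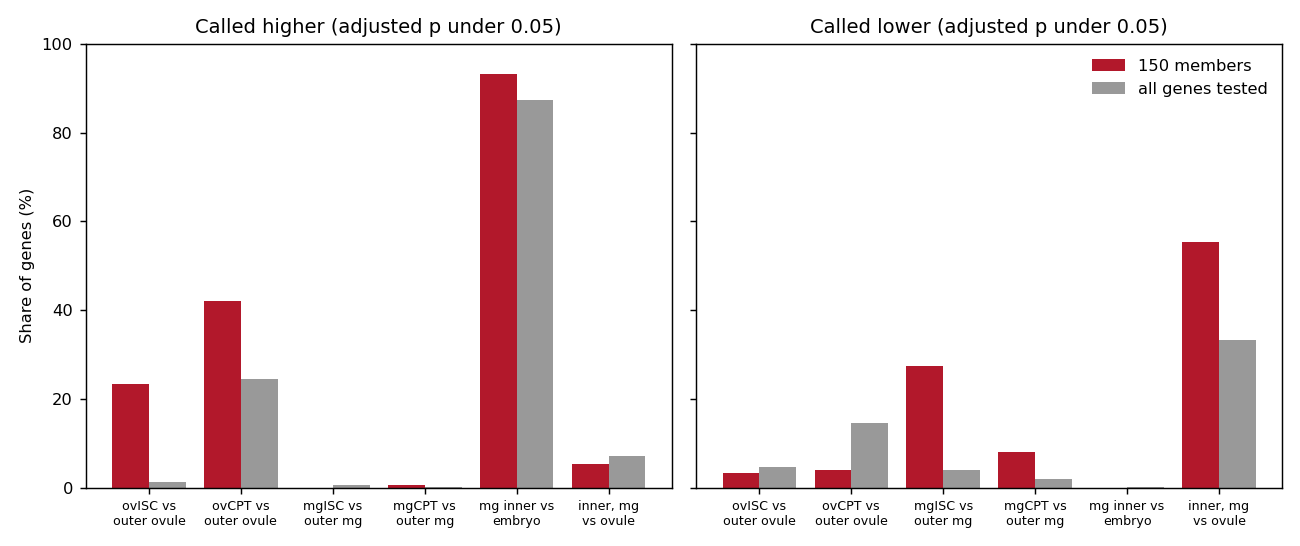
Share of the 150 members (red) and of all genes tested (grey) that were called higher (left) and lower (right) in each of the 6 comparisons of ovule and mature green subregions, in percent. The members stand furthest above the background among genes higher in the ovISC (23.3% against 1.27%) and genes lower in the mgISC (27.3% against 4.04%).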

How the data were processed

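Laser-microdissected subregions of cv. Topas seeds were measured by mRNA sequencing. After trimming by fastp and alignment to the Darmor-bzh reference by HISAT2, the authors counted unique reads of each gene with featureCounts and deposited TPM values in 1 table of 101040 genes and 74 libraries. TPM is relative to each library's total, so that a few abundant genes lower the values of all others. The members and lists were chosen with earlier results of these data known. Columns were matched to samples by title, and 1 column name matched no title and was assigned by its subregion only. Reads were recovered from TPM steps with a tolerance of 0.1 reads, allowing for a constant of 0.01 reads that the values carry in each gene. They served for depth and not for tests.

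Tests were made in R 4.3.3 with limma 3.58.1 (trended variance) on log2(TPM + 1), over the 26 ovule and mature green libraries and 98024 genes that reached a subregion mean of 1 TPM. Benjamini-Hochberg adjustment covered all genes tested, with a limit of 0.05. Scripts were tested on simulated data. Globular and heart libraries were described without tests because they chose the members. Named genes were the 12 of highest score, the 3 on each side of the limit, the 10 of highest mean TPM, the 3 largest called differences in each direction of a comparison, the annotated members and homoeolog pairs, and markers. Other genes named in the text were chosen after their values were seen. Planned functional lists and promoter motifs were not analysed here. Alternatives were a pseudocount of 0.1 TPM, no filter, quantile normalization, rescaling without the 100 most abundant genes, a fit of all 74 libraries, a replicate block, leaving out each library, and 3 further choices of libraries and 2 contrasts added after the data were seen. Pandas 2.3.3 and numpy 2.4.6 were used.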

Additional observations from a re-analysis of the deposited data

Results flagged for a closer look

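The difference of the inner from the outer maternal tissue was not the same at the ovule and mature green stages, by limma's test of the difference itself. The contrast was chosen after the values were seen. For the ISC the difference was lower at mature green in 50 members and higher in 2, where 2.25% and 1.93% of all genes passed. For the CPT it was lower at mature green in 59 members and higher in 2, where 12.7% and 6.82% of all genes passed.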

How the results depend on the processing

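Each count of members was recomputed under each alternative, which gave 351 values, of which 294 stayed within 1.5 times the reported count. The cause of the others was not tested. Quantile normalization gave 3 members lower in the ovISC and 3 lower in the ovCPT, where 1.54% and 10.2% of all genes were. It gave 3 higher in the mgISC and 19 lower in the mgCPT, where 5.75% and 3.03% were. Against the embryo it gave 29 higher and 18 lower, where 18.3% and 21.1% were. It gave 18 higher at mature green against the ovule, where 15.8% were. In the ISC difference between stages it gave 1 higher, where 2.62% were. Rescaling without the 100 most abundant genes gave 92 higher and 7 lower against the embryo, where 55.3% and 5.60% of all genes were. It gave 13 higher at mature green against the ovule and 1 higher in the ISC difference, where 11.2% and 0.901% were. For the fits that follow, the shares of all genes called are not given here. A pseudocount of 0.1 TPM gave 0 higher and 6 lower in the mgCPT, 0 higher in the ISC difference, and 1 higher in the CPT difference. Without a filter the ISC difference was higher in 1 member. Fitting all 74 libraries gave 4 higher in the CPT difference. Without the 5 doubtful libraries 9 were lower in the ovISC. Averaging the unnumbered mgCZSC library with replicate 3 gave 1 higher in the ISC difference and 4 higher in the CPT difference.

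Leaving out 1 library at a time gave 29 to 34 members higher and 1 to 6 lower in the ovISC, 44 to 67 higher and 4 to 15 lower in the ovCPT, 0 higher and 19 to 55 lower in the mgISC, and 0 to 1 higher and 5 to 22 lower in the mgCPT. It gave 127 to 142 higher and 0 lower against the embryo, and 5 to 16 higher and 78 to 89 lower at mature green against the ovule. For the ISC difference between stages it gave 1 to 2 higher and 33 to 60 lower, and for the CPT difference 2 to 13 higher and 44 to 72 lower. The shares of all genes called in these fits are not given here, so the ranges show only how far the counts of members moved. Between 139 and 150 members were kept. With a pseudocount of 0.1 TPM 136 members were kept, with the arithmetic mean 142, and with rescaling 122.

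The deviations of same-numbered libraries from their subregion means had a median r of -0.003 over 15 ovule pairs (-0.07 to 0.03). Over 28 mature green pairs it was 0.003 (-0.61 to 0.38). Mature green pairs of unlike number ran from -0.50 to 0.61. Deviations cancel within a subregion, which holds the median near its middle. The median thus cannot show whether same-numbered libraries deviated together. With a replicate block, 1 member was higher in the mgISC and 1 in the ISC difference between stages, and the other counts stayed within 1.5 times. Of 569 values for 34 results on single genes, 545 kept direction and side of the threshold, 15 lost the call, 6 gained it, and 3 turned. BnaA06g11780D in the ovCPT was -3.89 without ovCPT replicate 1, 0.22 without replicate 2, and 0.22 without the 5 doubtful libraries, and BnaA06g15180D in the ovCPT was 0.60 without replicate 1 and -2.11, a call gained, without replicate 2. Depth limits the ovCPT most, where 1 read on the median member of replicate 2 was worth 5.02 TPM.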
